A study of Mus musculus with 10 samples.

Results

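The mitochondrial genome transcripts were taken as every gene that the count table places on the chromosome MT. The rule gave 37 of the 54532 genes listed, namely 13 mRNAs, 2 ribosomal RNAs (rRNAs) and 22 transfer RNAs (tRNAs). The counts came from RNA-seq of brain tissue from 10 Slc20a2-HO mice, which carry the Slc20a2 tm1a(EUCOMM)Wtsi allele on both chromosomes, so the placebo group carries it as well, and no wild-type mouse was analysed here. FTY720, a modulator of sphingosine-1-phosphate receptors, was injected into the abdomen of 6 mice at 0.5 mg/kg in dimethyl sulfoxide 3 times a week from the age of 1.5 months for 12 weeks. The 4 placebo mice received dimethyl sulfoxide alone. Each mouse name holds F or P for the group, a digit 1 or 3 and a further number. A treated and a placebo mouse (F3-612 and P3-612) share the number 612, and the sources used here do not say what the number means. The sources used here do not say what the digit means, and it is unequally spread, with 3 of 6 FTY720-treated mice and 3 of 4 placebo mice bearing the digit 3.

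Each library held between 14772745 and 18303981 counts. Slc20a2 itself kept 89 to 294 counts per mouse, or 6.02 to 17.1 CPM, a gene's counts scaled to 1000000 counts per mouse. The libraries split by the digit in the mouse name. The summed level of 5 cerebellar granule cell genes was 99.8 to 118 CPM in the 4 mice of digit 1 and 816 to 982 CPM in the 6 mice of digit 3. The defining genes Gabra6 and Cbln3 were at 0.0574 to 0.233 CPM and at 0.402 to 1.10 CPM with digit 1, against 132 to 178 CPM and 253 to 346 CPM with digit 3. The sums of 4 Purkinje cell genes (173 to 242 CPM against 572 to 778 CPM) and of 3 microglial genes (102 to 116 CPM against 81.6 to 96.2 CPM) did not overlap between digits 1 and 3 either. Liver markers summed to at most 0.474 CPM in every mouse, and the heart muscle markers Myh6 and Actc1 to 2.03 to 4.59 CPM with digit 1 and 3.07 to 13.8 CPM with digit 3, nearly all of it Myh6. Mouse F1-622 stood apart from the other treated mice in several mitochondrial transcripts.

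The mitochondrial genome is a compact circular DNA that is transcribed from both strands into long precursors. The tRNAs lie between most of the other genes and are cut out of the precursors, which frees the mRNAs and rRNAs. The mRNAs encode core subunits of the respiratory chain and of ATP synthase, the rRNAs form the mitochondrial ribosome, and all other proteins of the organelle come from nuclear genes. Neurons depend heavily on this respiration.

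The tRNAs are 59 to 75 bases long. The following 4 are shown because mt-Tp, mt-Tc and mt-Tn held 67.1% of all tRNA counts and because mt-Te, the tRNA for glutamate, was the only tRNA that passed the test between the digits. All 4 are encoded on the minus strand of the GRCm38 reference, opposite to 12 of the mRNAs, and are written 5′ to 3′ as DNA with the anticodon in capitals (GENCODE M21 transcripts).
mt-Tp (proline, MT:15356-15422): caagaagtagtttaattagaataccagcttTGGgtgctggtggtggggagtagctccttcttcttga
mt-Tc (cysteine, MT:5192-5257): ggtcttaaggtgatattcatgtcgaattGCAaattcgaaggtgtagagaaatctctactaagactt
mt-Tn (asparagine, MT:5089-5159): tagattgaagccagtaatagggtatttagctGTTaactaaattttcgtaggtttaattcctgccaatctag
mt-Te (glutamate, MT:14071-14139): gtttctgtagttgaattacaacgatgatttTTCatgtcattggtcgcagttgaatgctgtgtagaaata

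A stretch of 4653 bases of the mitochondrial genome, MT:6390-11042, which holds several of the mRNAs, has nearly identical pieces on chromosome 1, within 1:24611535-24616197 on the minus strand. They are 7 annotated pseudogenes, and each was a row of the count table. It is called the copied stretch here, although only annotated transcripts were searched, so that the chromosome 1 bases between the pieces, where copies of mt-Atp8 and the tRNAs would lie, were not compared. Gm10925 (for mt-Atp6), Gm28661 (mt-Co2), Gm28437 (mt-Co3) and Gm10222 (mt-Nd4l) were identical to the mitochondrial gene at 100% of the aligned bases. Gm28439 matched 63.6% of the length of mt-Nd4, also at 100%. Gm28438 differed from mt-Nd3 at a single base, T3C, and Gm29216 from the last 483 bases of mt-Co1 at A1066T. Positions count from the first base of the mitochondrial transcript, whose base stands first.
The first 60 bases of mt-Nd3 and of its copy are shown with the differing base in capitals, because a read from any other part of the 345 aligned bases has the same letters in both places.
mt-Nd3 (MT:9459-9518): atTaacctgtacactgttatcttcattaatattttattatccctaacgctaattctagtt
Gm28438 (1:24613060-24613119): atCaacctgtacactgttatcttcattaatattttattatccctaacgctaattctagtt
For mt-Co1 a further copy, Gm13340 on chromosome 2, was 97.6% identical over the whole gene, and the window below differs between the mitochondrial gene and each copy, at A1066T for Gm29216 and T1072C for Gm13340.
mt-Co1 (MT:6390-6449): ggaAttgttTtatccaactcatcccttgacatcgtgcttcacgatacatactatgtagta
Gm29216 (1:24616129-24616188): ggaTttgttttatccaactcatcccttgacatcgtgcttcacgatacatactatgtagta
Gm13340 (2:22588526-22588585): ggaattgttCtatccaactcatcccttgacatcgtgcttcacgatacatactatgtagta

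The level of each transcript was compared per length, as fragments per kilobase of gene and 1000000 fragments (FPKM). mt-Co1, the catalytic subunit of cytochrome c oxidase, was highest with a median of 11825 FPKM over the 10 mice (10652 to 13708 in single mice), and it had the most counts of any gene in the table. mt-Cytb of complex III followed at 6319 FPKM (5641 to 7600) and mt-Nd1 of complex I at 5751 FPKM (4646 to 6855). The ranges of mt-Cytb and mt-Nd1 overlapped. The complex I subunits mt-Nd2 (3762 FPKM), mt-Nd6 (3080 FPKM), mt-Nd4 (2752 FPKM) and mt-Nd5 (2171 FPKM) came next. The rRNAs were at similar levels, with medians of 3246 FPKM for mt-Rnr1, the small subunit rRNA, and 3097 FPKM for mt-Rnr2, the large subunit rRNA.

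The 6 mRNAs that lie wholly within the copied stretch formed the lower end of the scale. Their medians were 383 FPKM for mt-Co2, 265 FPKM for mt-Atp6, 208 FPKM for mt-Co3, 191 FPKM for mt-Nd3, 70.2 FPKM for mt-Nd4l and 9.94 FPKM for mt-Atp8. Every one of these was below the lowest median of the 7 mRNAs outside or partly outside the stretch, mt-Nd5. Together the 6 made up at most 2.54% of the mitochondrial mRNA counts of a mouse. For 5 of the 6 the annotation lists a copy on chromosome 1, and for mt-Atp8 none. Of the counts of gene and copy together, the copy held 41.2% to 56.8% for mt-Atp6, 36.8% to 45.1% for mt-Co2, 29.5% to 47.1% for mt-Co3, 17.6% to 34.5% for mt-Nd4l and 8.04% to 13.4% for mt-Nd3. For mt-Nd4 and mt-Co1, which extend beyond the stretch, the copies held at most 1.71% and 0.921%. mt-Atp8 also shares 43 bases with mt-Atp6. How reads with several equal placements, or reads over 2 genes, were counted is not given in the sources used here, and its part in the low values was not tested.

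**Figure D1:**
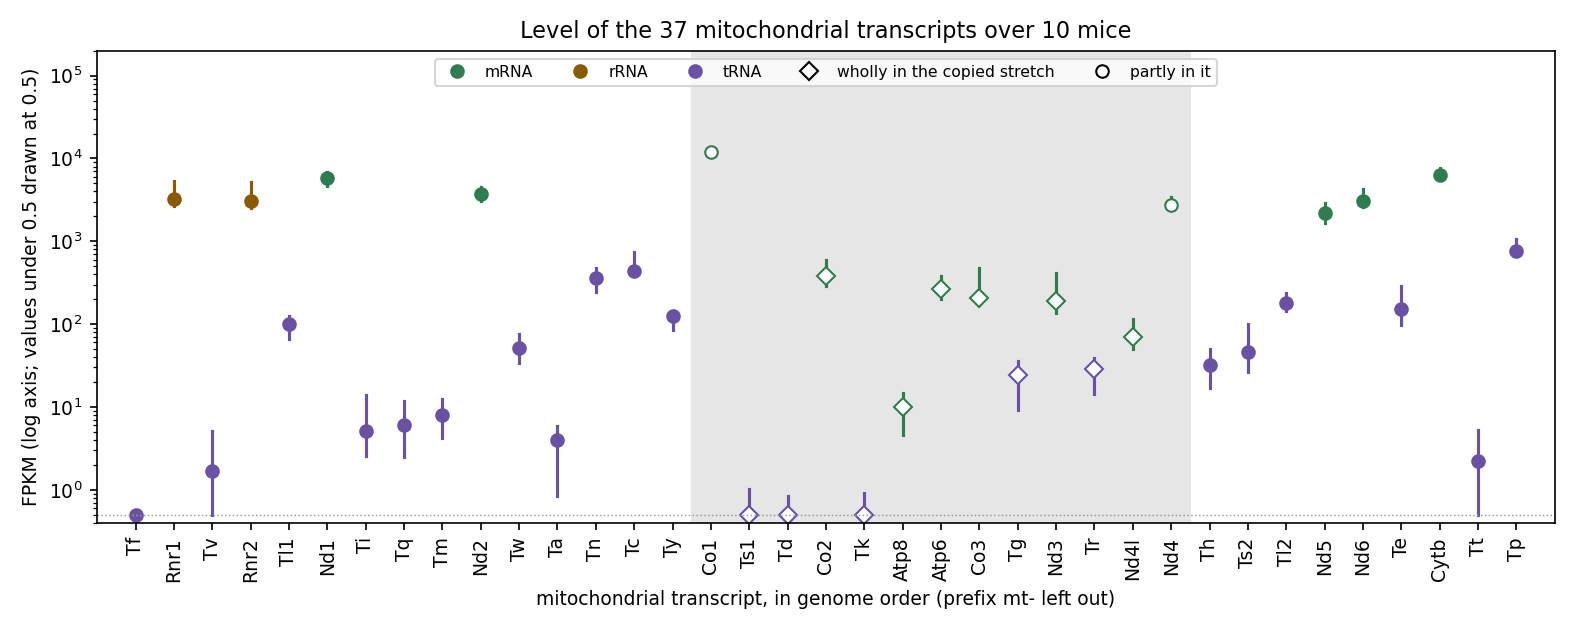
Deposited FPKM (log axis) of the 37 mitochondrial transcripts in genome order, with the median (symbol) and the range (line) over 10 mice and values under 0.5 drawn at 0.5; grey marks the genes wholly or partly in the stretch copied on chromosome 1. The 6 mRNAs wholly inside it have medians of 9.94 to 383 FPKM, and the other mRNAs of 2171 to 11825 FPKM.

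The tRNAs ranged from no count in any mouse (mt-Tf, the tRNA for phenylalanine) to a median of 866 counts and 755 FPKM (mt-Tp). The 8 tRNAs of the minus strand together held 79.6% of the tRNA counts, between 76.9% and 82.7% in single mice, and the 14 of the plus strand the rest. Of the 6 tRNAs with the most counts, 5 were of the minus strand: mt-Tp, mt-Tc, mt-Tn, mt-Te and mt-Ty, the tRNA for tyrosine. The other 3 of the minus strand (mt-Ts1, mt-Ta and mt-Tq) had medians of 0, 4.5 and 7 counts, among the lowest of all tRNAs. mt-Tl2, a leucine tRNA, was the exception with a median of 211 counts. Whether the counting used strand is not given in the sources used here, so reads of a minus-strand tRNA and of the opposite precursor cannot be told apart. The 5 tRNAs inside the copied stretch had medians of 0 to 31 counts. The filter on low counts removed 9 tRNAs, none with more than 17 counts in a mouse, and left 28 of the 37 transcripts to be tested, with all mRNAs and rRNAs and 13 tRNAs among them.

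The mitochondrial transcripts together took 4.83% to 6.48% of the counts in the 6 FTY720-treated mice and 5.08% to 5.42% in the 4 placebo mice. For the mRNAs the share in the FTY720-treated mice was 3.91% at the lowest, 4.60% at the median and 5.63% at the highest. The placebo mice had 4.24%, 4.48%, 4.52% and 4.62%, all within that range. Mouse F3-609 had the highest mRNA share and F1-918 the lowest, both treated. The rRNA share was 0.693%, 0.808% and 1.29% at the lowest, median and highest in the treated mice, and 0.658%, 0.811%, 0.822% and 0.880% in the placebo mice. F1-622 gave the 1.29%, and the other treated mice did not exceed 0.903%. The summed tRNAs were 168 ± 23.4 CPM with FTY720 and 163 ± 14.0 CPM with placebo (SD, n = 6 and 4). In all 3 classes the groups overlapped, and each difference of means was smaller than the pooled SD (0.187 against 0.465 percentage points for mRNAs, 0.0799 against 0.183 for rRNAs and 5.56 against 20.4 CPM for tRNAs). The sign of each difference turned on leaving out a single mouse. Without F3-609 the mRNA difference was -0.0090 percentage points and the tRNA difference -1.75 CPM, without P1-623 the tRNA difference was -0.733 CPM, and without F1-622 the rRNA difference was -0.0045 percentage points. The summed oligodendrocyte markers were at 3889 to 4651 CPM in the treated and 4521 to 5740 CPM in the placebo mice. Of 3 neuronal genes, Rbfox3 did not overlap (177 to 216 CPM against 221 to 232 CPM). The medians of Snap25 (2164 against 1988 CPM) and Syt1 (1145 against 1028 CPM) were higher in the treated mice, with overlap, and the sum of the 3 overlapped (3030 to 3606 CPM against 3044 to 3325 CPM). A further list held 6 genes that collect cytoplasmic ribosomal RNA reads, some of them without a count in any mouse. Lars2, among the 6, is also counted with the mitochondrial tRNA synthetases below. The 6 summed to 881, 1017 and 2479 CPM at the lowest, median and highest in the treated mice. In the placebo mice they summed to 1688, 2985 and 4456 CPM. The part of these in the shares was not tested. In bulk tissue, fewer cells of a type and less RNA per cell cannot be told apart.

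**Figure D2:**
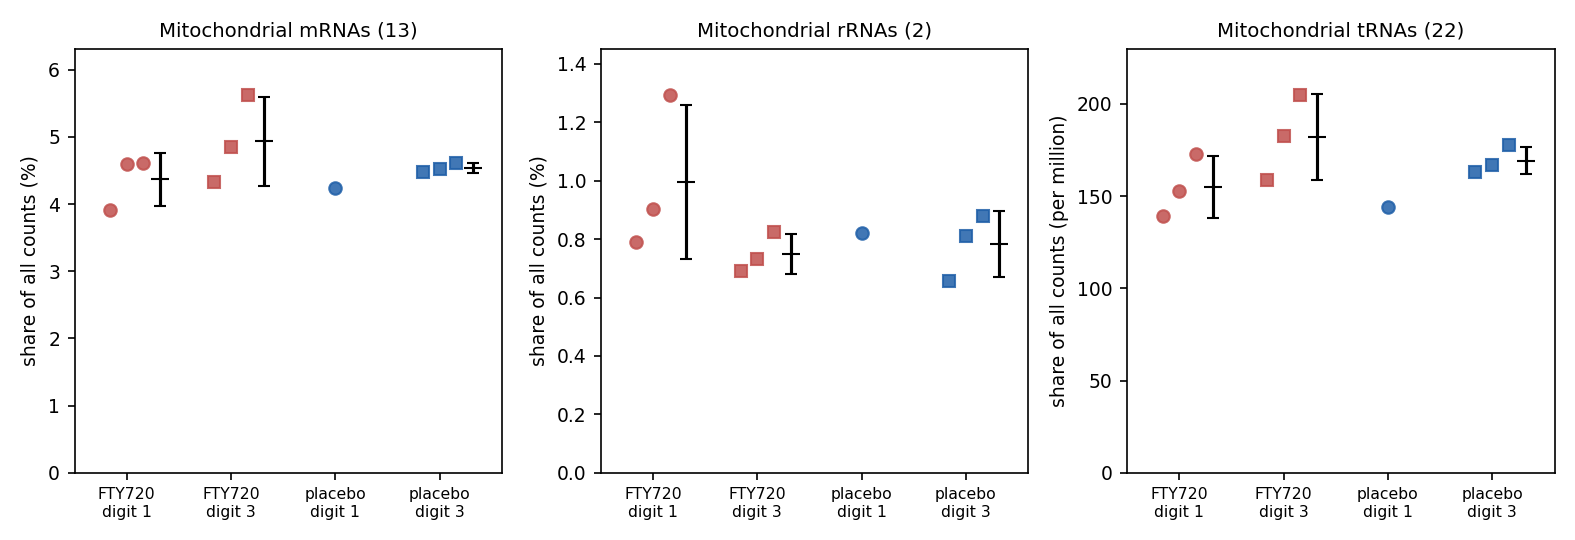
Share of all counts taken by the mitochondrial mRNAs (%), rRNAs (%) and tRNAs (CPM), 1 point per mouse by treatment and digit in the mouse name; bars give the mean ± SD where a cell holds more than 1 mouse. The treated and placebo mice overlap in each panel, and F1-622 is the highest rRNA value at 1.29%.

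No mitochondrial transcript passed the test between FTY720 and placebo. In edgeR quasi-likelihood fits, with p-values adjusted by the Benjamini-Hochberg method over 17665 genes, 0 of the 28 transcripts were called at an adjusted p under 0.05, and 0 of all genes, a background of 0%. At an unadjusted p under 0.05 the test named 0 of the 28, against 461 genes in all or 2.61%. DESeq2 called 0 genes as well and named 550 at an unadjusted p under 0.05, with 0 of the 28 transcripts among them. With the digit in the fit, 2256 genes (12.8%) had an unadjusted p under 0.05 and 0 were called, and of the 28 transcripts mt-Atp8 and mt-Tw, the tRNA for tryptophan, were among the former. On TMM-scaled log2 CPM, which divide by an edgeR-normalized library size rather than by the total, the groups overlapped for every one of the 28, where 0.804% of all genes did not overlap. The fold changes had 17 estimates above 0 and 11 below, with a median of 0.04 on the log2 scale against -0.003 over all genes.

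The intervals around these estimates were narrow for the abundant mRNAs. mt-Co1 took 1.69% to 2.20% of the counts with FTY720 and 1.69% to 1.85% with placebo, and its log2 fold change (FTY720 over placebo) was 0.11 with a 95% interval from -0.09 to 0.30. For mt-Cytb the log2 fold change was 0.03 (-0.18 to 0.25), for mt-Nd1 0.02 (-0.23 to 0.27), for mt-Nd4 -0.03 (-0.26 to 0.21) and for mt-Nd2 -0.04 (-0.30 to 0.21). The complex I subunits mt-Nd5 and mt-Nd6 both had 0.09 (-0.29 to 0.48 and -0.25 to 0.43). The intervals were wider within the copied stretch. There the log2 fold changes were -0.18 (-0.64 to 0.28) for mt-Co2 and 0.01 (-0.60 to 0.63) for mt-Co3 of cytochrome c oxidase, 0.07 (-0.33 to 0.47) for mt-Atp6 of ATP synthase, and 0.34 (-0.21 to 0.89) for mt-Nd3 and 0.20 (-0.28 to 0.68) for mt-Nd4l of complex I. Without F1-622 those of mt-Nd3 and mt-Co3 were 0.085 and -0.31. Over all single omissions mt-Co2 ran from -0.35 to -0.026 and mt-Nd4l from 0.056 to 0.37.

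mt-Atp8, a small ATP synthase subunit, had the lowest of these estimates. Its counts were 16 to 50 per mouse. In CPM the treated mice had 0.958 at the lowest, 1.43 at the median and 2.53 at the highest, and the placebo mice had 1.63, 2.51, 2.97 and 3.01. The groups overlapped, and the log2 fold change was -0.61 (SE 0.33, 95% interval -1.32 to 0.11, unadjusted p = 0.0917, adjusted p = 0.9999 by edgeR's test). The exact two-sided permutation p was 0.0952, where 210 splits allow 0.00476 at the least. With the digit in the fit the log2 fold change was -0.88 (unadjusted p = 0.00584, adjusted p = 0.354), and among the mice of digit 3 alone it was -1.11 (unadjusted p = 0.00862, adjusted p = 0.654), so it did not pass the threshold after adjustment in either.

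The rRNAs did not pass the test either. mt-Rnr1 was 2628, 3115 and 4972 CPM at the lowest, median and highest in the treated mice and 2555, 3135, 3376 and 3444 CPM in the placebo mice. F1-622 was the 4972, and all other mice overlapped. The log2 fold changes were 0.12 (95% interval -0.29 to 0.53) for mt-Rnr1 and 0.17 (-0.23 to 0.56) for mt-Rnr2. In the mice of digit 3 alone they were -0.12 and -0.07, and without F1-622 they were -0.037 and 0.0058. Among the tRNAs, the estimates farthest from 0 were 0.48 (-0.21 to 1.17) for mt-Ts2, a serine tRNA, 0.41 (-0.06 to 0.88) for mt-Tw and -0.26 (-0.57 to 0.06) for mt-Tl2. With single mice left out, mt-Ts2 ran from 0.25 to 0.68, mt-Tw from 0.30 to 0.50 and mt-Tl2 from -0.36 to -0.16. mt-Tp had -0.02 (-0.32 to 0.28).

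**Figure D3:**
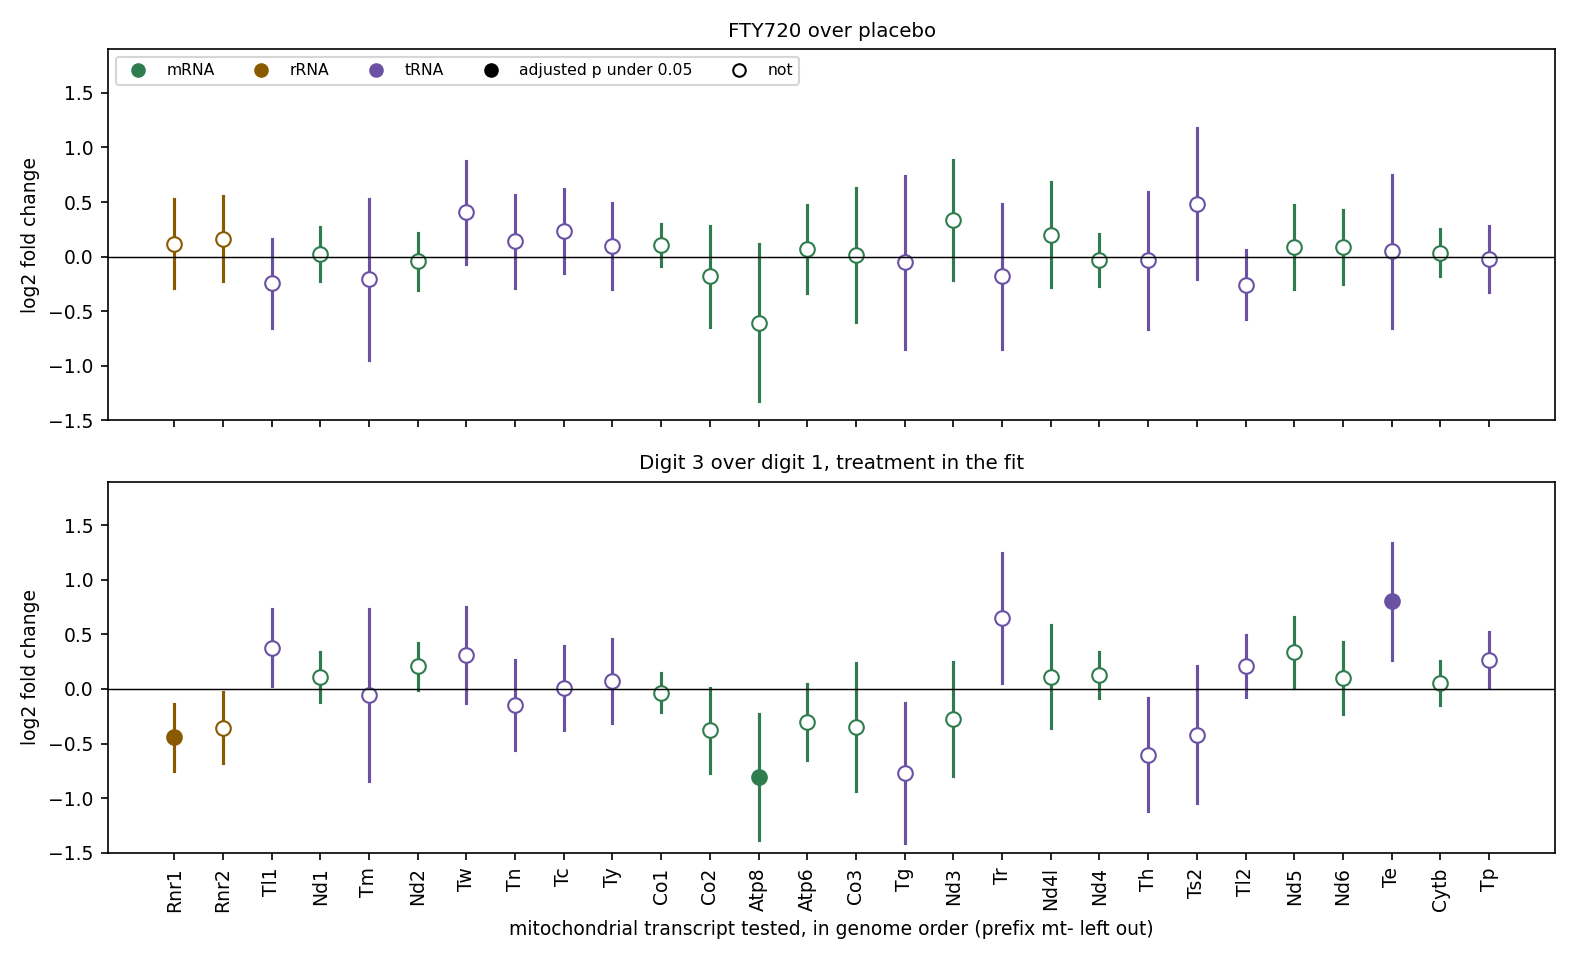
Log2 fold change of the 28 transcripts tested, in genome order, with 95% intervals (lines), for FTY720 over placebo (top) and digit 3 over digit 1 (bottom). Filled symbols pass an adjusted p of 0.05, which none do at the top and mt-Rnr1, mt-Atp8 and mt-Te do at the bottom.

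Between the digits the shares of the 3 classes overlapped. The mRNA share was 4.74% ± 0.470 with digit 3 (SD, n = 6) and 4.34% ± 0.329 with digit 1 (SD, n = 4). The tRNAs were at 176 ± 16.9 CPM and 152 ± 14.8 CPM (SD, n = 6 and 4). The rRNA share was 0.766% ± 0.0858 for digit 3 and 0.953% ± 0.233 for digit 1 (SD, n = 6 and 4). Without F1-622 the digit 1 mean of the rRNA share was 0.838%, and the difference between the digits went from -0.186 to -0.0722 percentage points. The differences were larger than the pooled SD for the rRNAs (0.158 percentage points) and the tRNAs (23.5 against 16.1 CPM), though not tested. The mRNA difference of 0.399 percentage points was smaller than the pooled SD of 0.423, and it was 0.220 without F3-609 and 0.257 without F1-918. The ratio of rRNA to mRNA counts was 0.172, 0.194, 0.231 and 0.281 in the mice of digit 1 and 0.142, 0.155 and 0.195 at the lowest, median and highest with digit 3.

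In the edgeR fit with treatment as a covariate, 3 of the 28 transcripts were called between the digits, 1 higher and 2 lower with digit 3. The background was 28.4% of all genes, with 13.9% called higher and 14.4% lower, against 10.7% of the transcripts. With no filter on low counts the order turned, with 8 of 36 transcripts (22.2%) against 15.4% of all genes. Beside the 3 of the reported fit these were mt-Nd5 (0.32, adjusted p = 0.0143), higher with digit 3, and mt-Rnr2 (-0.37, 0.00245), mt-Co2 (-0.39, 0.00334), mt-Co3 (-0.36, 0.0136) and mt-Atp6 (-0.32, 0.0285), lower. The count was 0 without F1-622, F3-609 or P1-623, 1 without F3-612 (mt-Tr, an arginine tRNA) and 1 without F3-908 (mt-Te). In these fits 24.2%, 16.6%, 14.4%, 19.9% and 28.7% of all genes were called, in the same order. Over all genes the reported fit called 2462 higher and 2548 lower, and a fit with library totals alone as the scale called 3323 higher and 1701 lower, 5024 in all. On that scale the 3 transcripts called were mt-Te, mt-Tp and mt-Nd2, all higher with digit 3, and mt-Rnr1 and mt-Atp8 lost their calls. The 5010 calls of the reported fit became 2908 without F3-609 and 2593 without P1-623, the only placebo mouse with digit 1. Of the 28 transcripts, 15 had estimates above 0 and 13 below, with a median log2 fold change of 0.03 against -0.01 over all genes. Only mt-Tg, a glycine tRNA with 11 to 38 counts, did not overlap in TMM-scaled log2 CPM between the digits, where 14.2% of all genes did not. In plain CPM it did overlap, with 1.76 to 2.40 for digit 1 and 0.639 to 1.86 for digit 3. Its log2 fold change was -0.77 (SE 0.30) with an adjusted p of 0.0673 by edgeR's test. The cerebellar genes given above differ between the same mice, and their part in these differences was not tested.

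mt-Te, the tRNA for glutamate whose sequence stands above, was higher with digit 3. It had 6.57, 7.13, 8.66 and 10.1 CPM in the mice of digit 1, and 7.83 at the lowest, 14.0 at the median and 20.5 at the highest with digit 3. F3-609 and P3-904 were highest, and P3-612 fell among the mice of digit 1. The log2 fold change was 0.80 (SE 0.25, adjusted p = 0.0293 by edgeR's test), and the exact two-sided permutation p without treatment was 0.0476. It passed the threshold in all 9 alternative fits that kept every mouse or the FTY720-treated mice alone, where its log2 fold change was 0.80. Leaving out F1-622, F1-918, F3-609, F3-612 or P1-623 moved the adjusted p to between 0.0612 and 0.104, and the log2 fold change over all single omissions was 0.66 to 0.93. mt-Nd6, the next gene on the same strand, had a log2 fold change of 0.10 (SE 0.15, adjusted p = 0.649 by edgeR's test).

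mt-Rnr1 was lower with digit 3. It was at 3095, 3376, 3622 and 4972 CPM in the mice of digit 1, and at 2555, 2961 and 3444 CPM at the lowest, median and highest with digit 3. The groups overlapped, with P3-612 the highest of digit 3. The log2 fold change was -0.44 (SE 0.14, adjusted p = 0.0346 by edgeR's test), and the exact two-sided permutation p without treatment was 0.0143. In the FTY720-treated mice alone it was -0.55 (adjusted p = 0.0408). The call ended with library totals as the scale (-0.35, adjusted p = 0.0717), with the first digit of the number in the name as a further covariate (-0.42, adjusted p = 0.0623) and without F1-622, F1-918, F3-609, F3-612, F3-908 or P1-623 (adjusted p 0.0525 to 0.0990), and without F1-622 the log2 fold change was -0.28. mt-Rnr2 had -0.35 (SE 0.15) and did not pass (adjusted p = 0.0932 by edgeR's test), while it had -0.17 without F1-622 and passed with no filter on low counts.

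mt-Atp8 was also called lower with digit 3. Its levels were 1.57, 2.44, 2.53 and 2.97 CPM with digit 1 and 0.958, 1.46 and 3.01 CPM at the lowest, median and highest with digit 3. The highest mouse of all, P3-612, was of digit 3, and the 3 FTY720-treated mice with that digit were the lowest, at 0.958, 1.11 and 1.30 CPM. The log2 fold change was -0.80 (SE 0.27, adjusted p = 0.0396 by edgeR's test), while the exact two-sided permutation p without treatment was 0.133. Without treatment in the fit it was -0.51 (adjusted p = 0.274), with library totals as the scale -0.72 (0.0594) and with the first digit of that number in the fit -0.73 (0.0755). In the FTY720-treated mice alone it was -1.04 (adjusted p = 0.0541), and leaving out any mouse but F1-918 or P3-612 ended the call (adjusted p 0.0529 to 0.102).

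Several transcripts came near the threshold. mt-Nd5 had 2881, 3011, 3040 and 4361 CPM with digit 1 and 3138, 4181 and 5493 CPM at the lowest, median and highest with digit 3. Only F1-624 of digit 1 lay within the range of digit 3, and the log2 fold change was 0.34 (SE 0.15, adjusted p = 0.108 by edgeR's test). It passed without F1-624 (0.47), without P3-612 (0.38) and with no filter on low counts (0.32). F3-609 and P3-904, the highest mice for mt-Te, were also the highest for mt-Nd5. mt-Tp was at 44.3, 47.2, 48.5 and 49.1 CPM with digit 1 and from 50.4 to 73.6 CPM with digit 3, which did not overlap in plain CPM but did in TMM-scaled log2 CPM, and its log2 fold change of 0.27 did not pass (adjusted p = 0.102 by edgeR's test). mt-Tr had a log2 fold change of 0.65 and mt-Tl1, a leucine tRNA, of 0.38 (adjusted p = 0.0930 and 0.0994 by edgeR's test). mt-Tr passed without F3-612 (0.83, adjusted p = 0.0488) and mt-Tl1 without F1-918 (0.51, adjusted p = 0.0462). These were the upper ends of the single omissions, and the lower ends were 0.40 for mt-Tr and 0.19 for mt-Tl1. With library totals as the scale, mt-Tp (0.35) and mt-Nd2 (0.29) passed. mt-Co3 and mt-Nd3, at -0.34 and -0.27 in the reported fit, turned to 0.089 and 0.073 without F1-622.

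Within the mRNAs, the share of mt-Co1 in the mitochondrial mRNA counts was 37.4% to 41.1% with digit 3 and 41.4% to 43.3% with digit 1, which did not overlap. The means were 39.5% ± 1.26 and 42.4% ± 0.793 (SD, n = 6 and 4). The shares of all other mRNAs overlapped. The level of mt-Co1 itself was 18693 CPM with digit 3 and 18372 CPM with digit 1 on average, with overlap. Its log2 fold change was -0.03 (SE 0.08, adjusted p = 0.794 by edgeR's test). mt-Nd2 made up 8.88% ± 0.540 and 7.95% ± 0.325, and mt-Cytb 16.1% ± 0.311 and 16.1% ± 0.471 (SD, n = 6 and 4). Of the 6 mRNAs wholly within the copied stretch, 5 had estimates below 0 (median -0.32), and of the other 7 mRNAs, 1 did (median 0.11). Without F1-622 it was 3 of 6 (median -0.063) and 1 of 7 (median 0.16). Adding the counts of the chromosome 1 copies to their genes left the same 3 transcripts called. None of the 3 has an annotated copy there, so their own counts did not change and the fit could not test their calls.

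**Figure D4:**
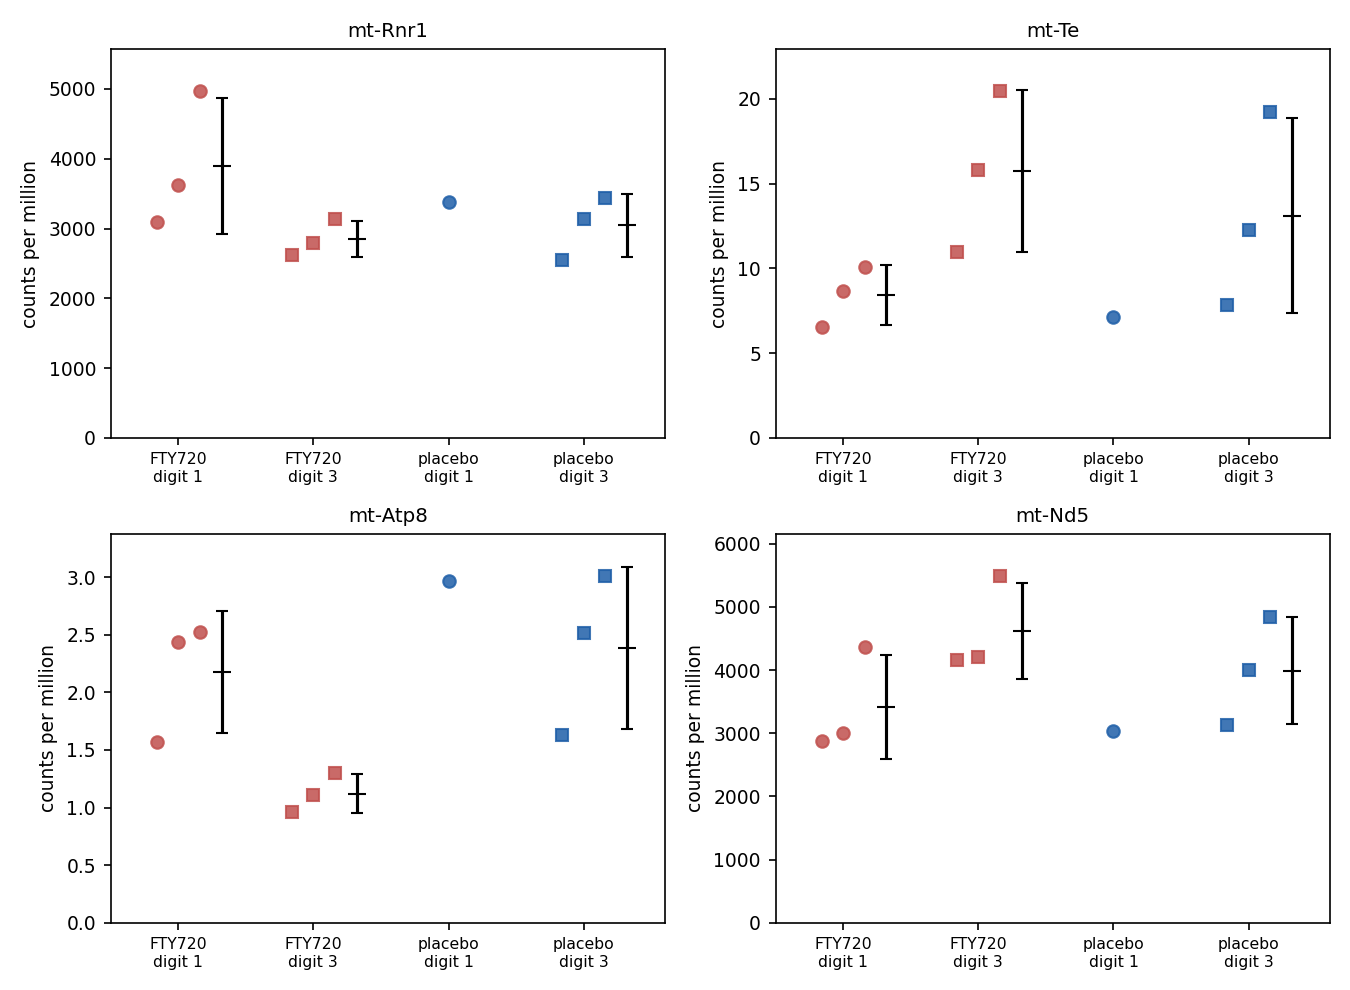
Level of mt-Rnr1, mt-Te, mt-Atp8 and mt-Nd5 (CPM of all counts), 1 point per mouse by treatment and digit, with the mean ± SD where a cell holds more than 1 mouse. mt-Te runs from 6.57 to 10.1 CPM with digit 1 and from 7.83 to 20.5 CPM with digit 3, and the groups overlap in all 4 panels.

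Whether the FTY720 difference itself depended on the digit was tested by an interaction term. It called 0 of 17665 genes, and 0 of the 28 transcripts had an unadjusted p under 0.05 (the smallest was 0.0963, edgeR), while 345 genes did. The placebo cell with digit 1 held a single mouse, which was assumed to vary like the others.

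The nuclear genes that serve the mitochondrial genome were read in the same fits. None of the 4 lists had a gene called between FTY720 and placebo. Between the digits, 5 of 39 genes for mitochondrial transcription and RNA processing were called, 4 higher and 1 lower, or 12.8% against the 28.4% of all genes. Higher with digit 3 were Pnpt1 (log2 fold change 0.57), which degrades and imports RNA, Fastkd1 (0.43) and Fastkd2 (0.40), which bind mitochondrial RNA, and Mterf3 (0.37), a regulator of mitochondrial transcription. Mrm2 (-0.64), which methylates the large subunit rRNA, was lower. The count was 3 without F3-609 (7.69% against 16.6% of all genes), 2 without P1-623 (5.13% against 14.4%) and 8 without P3-612 (20.5% against 33.5%).

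Of 11 genes for mitochondrial DNA replication, 4 were called between the digits, or 36.4% against the 28.4% of all genes, on a short list. Polg2 (0.64), the accessory subunit of the DNA polymerase, and Ssbp1 (0.39), the single-strand binding protein, were higher with digit 3. Top1mt (-0.44), a topoisomerase, and Tk2 (-0.32), a thymidine kinase, were lower. The count was 2 without F1-624, F1-918 or F3-908 (18.2% against 26.9%, 20.9% and 28.7% of all genes). It was 1 without F3-612 or P3-907 (9.09% against 19.9% and 22.8%), and 0 without F3-609 or P1-623 (0% against 16.6% and 14.4%). Of 17 mitochondrial tRNA synthetases, which load the tRNAs with amino acids, 3 were called, or 17.6% against 28.4% of all genes. Hars2 (0.47) and Mars2 (0.39) were higher and Fars2 (-0.50) lower. The count was 1 without F3-612 or without P1-623 (5.88% against 19.9% and 14.4% of all genes).

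The nuclear subunits of the respiratory chain and ATP synthase are partners of the mitochondrial mRNAs. Between the digits, 22 of 83 were called, 1 higher and 21 lower, or 26.5% against 28.4% of all genes. Ndufb2 of complex I was higher (log2 fold change 0.43). The cytochrome c oxidase subunits Cox6a2 (-0.99) and Cox6a1 (-0.82), Uqcr11 (-1.12) of complex III and Ndufa13 (-0.93) of complex I were lower. The list's median log2 fold change was -0.37 against -0.01 over all genes and 0.05 for the 13 mitochondrial mRNAs. With library totals as the scale the list's median was -0.29 and 14 genes were called. Without F1-622 the median was -0.23, with 66 of 83 below 0. The count was 13 without F1-622 (15.7% against 24.2% of all genes), 9 without F3-609 (10.8% against 16.6%), 9 without F3-612 (10.8% against 19.9%) and 8 without P1-623 (9.64% against 14.4%). It was 46 without P3-612 (55.4% against 33.5%) and 21 in the FTY720-treated mice alone (25.3% against 17.9%), so that the order against all genes turned in both, as it did without F1-624, F3-908 or P3-904 (28.9% to 33.7% against 26.7% to 28.7%). The order turned too by DESeq2 (29 genes, 34.9% against 32.4%) and with no filter on low counts (52 genes, 62.7% against 15.4%). Between FTY720 and placebo 77 of the 83 estimates were below 0, with a median of -0.18 against -0.003 over all genes, and 0 were called. With the digit as a covariate the median was -0.28 (76 of 83 below 0), and in the 6 mice of digit 3 it was -0.34 (77 of 83). The size of the median moved with single mice, staying below 0. Without P3-612 it was -0.063 with 56 of 83 below 0, without P1-623 -0.098, without F3-609 -0.11, without F3-612 -0.12, without F1-622 -0.29, and without P3-904 81 of 83 with -0.31.

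The summed counts of these nuclear subunit genes ran from 8339 to 13510 CPM over the 10 mice, and those of the mitochondrial mRNAs from 39133 to 56300 CPM. Atp5o entered the nuclear sums more than once. They are therefore too high, and the ratios below too low, by an amount not given here. The ratio of the mitochondrial to the nuclear sum was 3.36, 3.43, 3.55 and 4.86 in the mice of digit 1, and 3.35 at the lowest and 6.54 at the highest with digit 3. On these sums F3-609 had the highest ratio and P3-612 the lowest, so the digits overlapped.

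**Figure D5:**
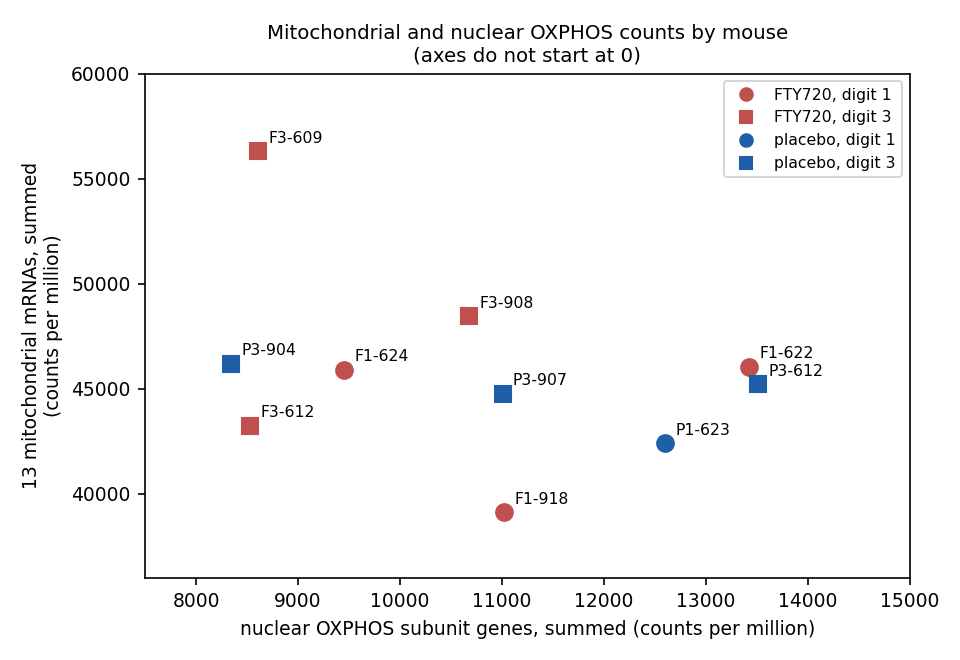
Summed counts of the 13 mitochondrial mRNAs against the summed counts of the nuclear respiratory chain and ATP synthase (OXPHOS) genes, both in CPM, 1 point per mouse; the axes do not start at 0. F3-609 combines the highest mitochondrial sum with a low nuclear sum, and F1-622 and P3-612 have the highest nuclear sums. Atp5o was counted more than once in the nuclear sums.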

How the data were processed

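Brain RNA of 10 mice was sequenced after NEBNext Ultra library preparation. Per the labels and the study's methods, the authors ran CASAVA 1.8 and fastp, aligned reads to GRCm38 with HISAT2 2.0.5 and used featureCounts 1.5.0-p3 and DESeq2 1.20.0. Strand and multiple-mapping settings, and whether poly-A RNA was selected, are not given in the sources used here. The deposited counts are whole reads per gene, not normalized. The deposited FPKM values divide those counts by gene length and a library total, and served only for levels between genes.

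Genes on MT were taken as members, and the members and gene lists were chosen with earlier results of these data known. Shares and CPM (counts scaled to 1000000) use all counts of a mouse. Counts of 17665 genes kept by filterByExpr were fitted with edgeR 4.0.16 (R 4.3.3; TMM, quasi-likelihood, Benjamini-Hochberg over all genes kept), without a covariate for FTY720 and with treatment for the digit. A gene was called at an adjusted p under 0.05. DESeq2 1.42.0, other scalings, filters, covariates and subsets were alternatives. Single transcripts also had an exact permutation test on TMM-scaled log2 CPM (prior count 2), which took no covariate in either comparison. Log2 fold changes carry their standard error (SE) or 95% interval. Nuclear copies were genes aligning by blastn 2.17.0 at 90% identity or more over at least 100 bases. The fit was tested on simulated data for FTY720 against placebo. Of 187 genes changed by 1.5 on the log2 scale among 17397 tested, 174 were recovered, with 11 false calls. The simulated libraries held no difference between the digits, and 1.5 is larger than every mitochondrial FTY720 estimate. The simulation therefore does not show how well changes of that smaller size would be found. Named were all mRNAs and rRNAs, the 12 tRNAs with a median of 10 counts or more, and of each nuclear list the called genes of smallest p, at most 4 per direction; mt-Tf, mt-Ts1, mt-Ta, mt-Tq, Gabra6, Cbln3, Rbfox3, Snap25, Syt1, Myh6, Actc1, Lars2 and the copies were named after their values were seen. The study's methods say that littermates were used, without giving which mice shared a litter, so litter was not in the fits.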

Additional observations from a re-analysis of the deposited data

Results flagged for a closer look

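Among 30 values (the 27 named transcripts and the summed share of each class), each examined within the FTY720 and the placebo group, 7 had a mouse far from the rest of its group. A gap of this size appears by chance in about 1 in 20 groups. F1-622, treated and of the digit 1, accounted for 6 of the 7. Its summed rRNA share was 1.29%, against 0.693% to 0.903% in the other treated mice, and its mt-Rnr2 level was 7977 CPM against 4298 to 5406 CPM. It also stood above the others in mt-Co2 (394 CPM against 220 to 283), mt-Co3 (360 CPM against 131 to 175), mt-Nd3 (138 CPM against 51.03 to 75.3) and mt-Ts2 (5.62 CPM against 2.44 to 3.53). The remaining value was mt-Tc in the placebo mouse P3-904, at 33.1 CPM against 28.0 to 28.6 CPM.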

How the results depend on the processing

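Between FTY720 and placebo, 0 transcripts were called in every fit run. Between the digits, 8 of 36 (22.2%) were called with no filter on low counts, where 15.4% of all genes were, 1 of 28 (3.57%) with the first digit of the number in the mouse name as a covariate, against 24.2% of all genes, and 0 to 4 with single mice left out. These counts and those of the gene lists depend on few mice per group, and mt-Atp8 and the tRNAs on few counts. Differences in summed class shares moved by less than the pooled SD in every alternative run, but between FTY720 and placebo each turned in sign without at least 1 mouse, to -0.0090 percentage points (mRNAs), -0.0045 (rRNAs) and -1.75 CPM (tRNAs).

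Directions that turned between FTY720 and placebo were all of uncalled estimates, on the log2 scale. With the digit as a covariate, mt-Rnr1 was -0.019, mt-Nd2 0.010, mt-Co3 -0.10, mt-Nd4 0.0015, mt-Tr 0.013 and mt-Tp 0.047. In the mice with the digit 3 alone, mt-Rnr1 was -0.12, mt-Rnr2 -0.070, mt-Co3 -0.23, mt-Nd4 0.018 and mt-Tp 0.019. mt-Co3 was -0.047 with the first digit of that number as a covariate, and mt-Atp6 -0.041 with the chromosome 1 copies added, an alternative chosen after seeing the data. With single mice left out, the ranges that crossed 0 were -0.037 to 0.19 for mt-Rnr1, -0.021 to 0.088 for mt-Nd1, -0.11 to 0.0044 for mt-Nd2, -0.051 to 0.23 for mt-Atp6, -0.31 to 0.13 for mt-Co3, -0.10 to 0.0099 for mt-Nd4, -0.0047 to 0.23 for mt-Nd5, -0.016 to 0.075 for mt-Cytb, -0.016 to 0.19 for mt-Ty, -0.32 to 0.23 for mt-Tg, -0.18 to 0.14 for mt-Th, -0.15 to 0.40 for mt-Te and -0.11 to 0.079 for mt-Tp.

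Between the digits, mt-Co1 was 0.053 with library totals only, and mt-Tc was -0.0051 with no filter and -0.046 with no treatment covariate. With single mice left out, the ranges that crossed 0 were -0.086 to 0.0058 for mt-Co1, -0.48 to 0.089 for mt-Co3, -0.42 to 0.073 for mt-Nd3, -0.10 to 0.25 for mt-Nd4l, -0.013 to 0.11 for mt-Cytb, -0.085 to 0.22 for mt-Tc and -0.050 to 0.18 for mt-Ty. The cause was not tested.

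The alternatives for the gene lists were chosen after seeing the data. The calls between the digits among the transcription and RNA processing genes were 10 by DESeq2, 10 with library totals only, 2 in the FTY720-treated mice alone and 2 to 8 with single mice left out. Replication genes gave 2 with library totals only, 2 with no treatment covariate, 0 in the FTY720-treated mice alone and 0 to 4 with single mice left out. The tRNA synthetases gave 1 in the FTY720-treated mice alone and 1 to 4 with single mice left out. The nuclear respiratory chain and ATP synthase genes gave 14 with library totals only (16.9%), 52 with no filter (62.7%), 4 with no treatment covariate (4.82%), 21 in the FTY720-treated mice alone (25.3%) and 8 to 46 with single mice left out (9.64% to 55.4%). Of all genes, 32.4% were called by DESeq2, 28.4% with library totals only, 15.4% with no filter, 20.9% with no treatment covariate, 17.9% in the FTY720-treated mice alone and 14.4% to 33.5% with single mice left out.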
